A study of Macaca mulatta with 19 samples.

Results

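Granulosa cells from follicles that held a metaphase I (MI) oocyte were compared between rhesus macaques fed a Western-style diet and rhesus macaques fed chow, none of them given testosterone. The comparison takes 6 of the 19 libraries in the study. They are the 3 libraries labelled WSD+C and the 3 labelled Chow+C whose oocyte label is MI, so that diet differs while steroid treatment and oocyte class are the same. They are written below as WSD+C MI 1 to 3 and Chow+C MI 1 to 3.

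WSD+C animals ate the Western-style diet and Chow+C animals ate standard chow. Both carried a cholesterol implant, the control for the testosterone implants of the other treatment groups, and both were treated for about 3.5 years from around menarche. In a controlled ovulation cycle the contents of the single follicle selected in that cycle were aspirated, and polyA-selected RNA of the luteinized granulosa cells was sequenced without strand information. The labels name no sorting of the cells, and they call the samples biological replicates. Of the other 13 libraries, 10 came from testosterone-treated animals, 4 on chow (Chow+T) and 6 on the Western-style diet (WSD+T).

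An MI oocyte has resumed meiosis and has not yet reached metaphase II, the stage at which it is normally ovulated. The granulosa cells around it respond to the ovulatory gonadotropin surge by turning from estrogen to progesterone production, by making prostaglandins and a hyaluronan-rich matrix, and by taking up lipoprotein cholesterol as the substrate for steroids. Dietary lipid can reach these cells through the follicular fluid, which is why lipid uptake, lipid synthesis and insulin signalling are of interest beside steroidogenesis. The comparison asks whether the diet alone changes the granulosa transcriptome when the oocyte class is held constant.

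The read counts in genes were 35233042, 28832132 and 35197029 in Chow+C MI 1 to 3. They were 41175908, 39427622 and 45280532 in WSD+C MI 1 to 3, all above chow (exact permutation test, two-sided, p = 0.1). Chow+C MI 2 stood apart from the other 5. Genes took 49.1% of its reads and 59.6% to 67.5% of those of the others, and 17.9% of its gene counts came from mitochondrially encoded genes, against 1.45% to 5.24%. Chow+C MI 1 and 3, at 1.45% and 1.95%, had almost no counts for several of these genes, which lowers their shares. In the other 13 libraries the share ran from 0.795% to 11.4%. Chow+C MI 2 alone carried the first principal component, which held 45.9% of the variance (119.1 against -39 to -7.5). The share of reads in genes was 63.5%, 49.1% and 59.6% in Chow+C MI 1 to 3 and 64.5%, 67.5% and 66.7% in WSD+C MI 1 to 3 (exact permutation test, two-sided, p = 0.1, the smallest that 3 against 3 can give). The number of counts in genes and the share of reads in genes both moved with diet, and their part in the results was not tested. A depth difference bears most on genes with few counts. For many of the results that move with Chow+C MI 2, the value without it is also given.

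Levels are given as CPM, read counts scaled to a common library total. Each of the 10 granulosa markers reached 1 CPM in all 6 libraries. Leukocyte markers overlapped between diets, with a mean log2 CPM of 3.42, 1.06 and 1.01 in Chow+C MI 1 to 3 and of -0.15, 0.13 and 1.89 in WSD+C MI 1 to 3 (exact permutation test, two-sided, p = 0.3). Of 11 leukocyte markers 3 reached 1 CPM in all 6, and RAC2 had no read in any of the 6. The 9 erythroid markers summed to 3520, 74.9 and 23.4 CPM on chow and to 68.4, 17.1 and 365 CPM on the Western-style diet, with the highest sum in Chow+C MI 1. In bulk RNA, fewer cells of a type and less RNA per cell cannot be told apart.

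The chow libraries differed more among themselves than the Western-style diet libraries did. The median SD of a gene's log2 CPM was 0.509 within Chow+C MI and 0.248 within WSD+C MI. Without Chow+C MI 2 the median SD of the chow pair was 0.276, and 53% of genes then had the smaller SD in WSD+C MI, against 76.5% with it. The SD of a pair rests on fewer libraries than the SD within WSD+C MI, so these SDs are not directly comparable. They therefore do not show whether the wider spread of chow depended on Chow+C MI 2. Log2 CPM correlated at 0.878 to 0.952 within chow, at 0.958 to 0.967 within the Western-style diet and at 0.891 to 0.969 between diets, so the pairs between diets covered about the same range as the pairs within them.

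No gene passed the threshold. Of 13794 genes tested with edgeR's quasi-likelihood test, 0 (0%) had a Benjamini-Hochberg adjusted p under 0.05, and the smallest adjusted p was 0.652. An unadjusted p under 0.05 was reached by 898 genes, where 690 would be expected if nothing differed. Of these, 314 (2.28% of those tested) were higher and 584 (4.23%) were lower on the Western-style diet. In 924 genes (6.70%) all 3 WSD+C MI libraries lay above all 3 Chow+C MI libraries, and in 969 (7.02%) all 3 lay below. The median log2 fold change over all genes was -0.02, and 48.3% of genes were positive.

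The number of genes at an unadjusted p under 0.05 depended on single libraries. It was 2589 without Chow+C MI 1 (938 higher, 1651 lower). Without Chow+C MI 3 it was 839 (258 higher, 581 lower), and without WSD+C MI 3 it was 604 (235 higher, 369 lower). It was 382 without WSD+C MI 1 (224 higher, 158 lower), 364 without WSD+C MI 2 (202 higher, 162 lower) and 1034 without Chow+C MI 2 (588 higher, 446 lower). In each of these last 3 fits the higher genes were the larger group. Without Chow+C MI 1, Chow+C MI 3 or WSD+C MI 3 the lower genes were the larger group. The excess of lower genes thus depended on which library was left out. No gene passed the adjusted threshold in any of these fits. DESeq2, run on the same genes, called 35 genes, 21 higher and 14 lower, and limma-voom called 0, with 647 genes at an unadjusted p under 0.05. Because edgeR gave no call, the genes below are described by their values and are not past its threshold.

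Among genes with a symbol and a mean of at least 1 CPM, the 12 with the smallest p in the higher direction were MESP2, GPR83, FAM47E, CSRP3, FAM110B, LHFP, ATP7A, FBXO33, NFE2L3, SRI, SYNPO2 and BAMBI. All 12 had an adjusted p of 0.652, and in all 12 the diets did not overlap. DESeq2 called 10 of them. They were chosen for small p in these same libraries, so neither count is independent evidence. The same holds for the 12 lower genes below.

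GPR83, a G protein-coupled receptor, stood at 7.06, 3.93 and 8.43 CPM in Chow+C MI 1 to 3 and at 29.5, 18.5 and 45 CPM in WSD+C MI 1 to 3. The lowest Western-style diet library was thus above the highest chow library. The log2 fold change was 2.26 ± 0.43 (SE, unadjusted p = 0.00128), and it stayed between 1.9 and 2.53 when any 1 library was left out. MESP2, a helix-loop-helix transcription factor known from somite segmentation, was at 0.833, 0.501 and 0.571 CPM on chow and at 4.03, 3.7 and 2.67 CPM on the Western-style diet. Its libraries were also apart, at a low level, with a log2 fold change of 2.44 ± 0.44 (SE).

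ATP7A, the copper-transporting ATPase, was at 15.9, 19.6 and 21.9 CPM on chow and at 38.7, 72.6 and 45.6 CPM on the Western-style diet. WSD+C MI 2 was the highest, and the log2 fold change of 1.45 ± 0.29 (SE) was 1.15 without it. BAMBI, a pseudoreceptor that dampens TGF-beta and BMP signalling, was at 23.2, 17.1 and 16.5 CPM on chow and at 44.7, 51.2 and 30.6 CPM on the Western-style diet (log2 fold change 1.15 ± 0.27, SE). Its groups were separate by a smaller margin than those of GPR83.

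CSRP3, the muscle LIM protein, was at 1.99, 2.31 and 1.74 CPM on chow and at 9.01, 6.92 and 5.08 CPM on the Western-style diet. SYNPO2, an actin-binding protein, was at 11.8, 17.3 and 15.1 CPM on chow and at 24.3, 45.3 and 36.8 CPM on the Western-style diet. In both genes the lowest Western-style diet library was above the highest chow library, with log2 fold changes of 1.80 ± 0.36 and 1.27 ± 0.29 (SE). NFE2L3, a transcription factor of the cap'n'collar family, had a log2 fold change of 1.06 ± 0.23 (SE), and SRI, the calcium-binding protein sorcin, one of 1.17 ± 0.27 (SE). FBXO33, a substrate-binding subunit of a ubiquitin ligase, had the smallest log2 fold change of the 12 (0.88 ± 0.19, SE), at 14.7 to 16.4 CPM on chow and 26 to 30 CPM on the Western-style diet.

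The 12 genes with the smallest p in the lower direction were LRRC56, PRG4, VPS9D1, CBX2, KCNAB3, IFITM10, ZNF879, RASAL1, WDR81, CLUH, SH3TC1 and EFCC1. Again the diets did not overlap in any of the 12, the adjusted p was 0.652 for each, and DESeq2 called 10 of them.

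PRG4, the secreted proteoglycan lubricin, was at 19.6, 7.28 and 19 CPM in Chow+C MI 1 to 3 and at 3.37, 3.33 and 2.67 CPM in WSD+C MI 1 to 3. The Western-style diet libraries lay within a narrow band below all chow libraries. The log2 fold change was -2.29 ± 0.43 (SE, unadjusted p = 0.00109), and here Chow+C MI 2 was the chow library nearest to the other diet, so that the value without it was -2.63. CBX2, a chromobox subunit of Polycomb repressive complexes, was at 40.3, 51.5 and 40.7 CPM on chow and at 20.4, 25 and 22.8 CPM on the Western-style diet (log2 fold change -0.96 ± 0.20, SE). Both groups were tight, and the value without Chow+C MI 2 was -0.83.

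CLUH, an RNA-binding protein of messenger RNAs for mitochondrial proteins, was at 130, 226 and 176 CPM on chow and at 81, 82.7 and 97.7 CPM on the Western-style diet. Its log2 fold change of -1.03 ± 0.25 (SE) became -0.81 without Chow+C MI 2. RASAL1, a GTPase-activating protein for Ras, was at 2.04, 19.6 and 17.3 CPM on chow and at 1.34, 0.644 and 1.09 CPM on the Western-style diet. Chow+C MI 1 thus lay close to the Western-style diet libraries and far from the other chow libraries, and the log2 fold change had a wide error (-3.66 ± 0.84, SE). EFCC1 was highest in Chow+C MI 2, and its log2 fold change of -2.12 was -1.46 without that library.

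**Figure D1:**
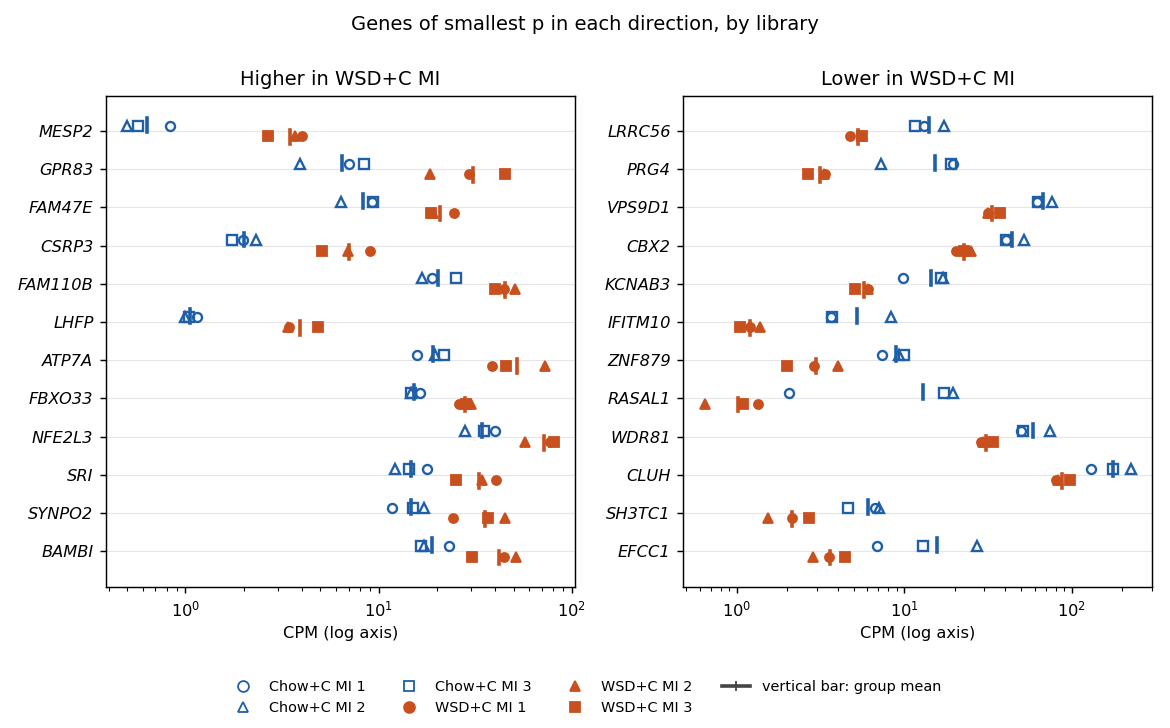
CPM of the 12 higher (left) and 12 lower (right) genes of smallest p in each of the 6 libraries, on a log axis, with open symbols for Chow+C MI, filled symbols for WSD+C MI and a vertical bar at each group mean. In all 24 genes the open and filled symbols do not overlap; the gap is small for BAMBI, where the highest chow library (23.2 CPM) lies near the lowest Western-style diet library (30.6 CPM).

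The smallest p of all genes belonged to NLRP2, which fell below the average log2 CPM required of a named gene. It is singled out after its values were seen. NLRP2 is a member of the NLR family known for a maternal role in the oocyte and early embryo. Its counts were 1, 1 and 4 in Chow+C MI 1 to 3 and 71, 238 and 187 in WSD+C MI 1 to 3, or at most 0.104 CPM against 1.73, 6.39 and 4.06 CPM. The unadjusted p was 0.000158 and the adjusted p 0.652 in edgeR, while DESeq2 gave an adjusted p of 7.51e-08. Oocyte markers were low in all 6 libraries, with summed levels of 2.3, 9.25 and 2.41 CPM on chow and 3.04, 3.32 and 19.2 CPM on the Western-style diet. DPPA3 was at 0 in all 6, and the part of oocyte RNA in the NLRP2 difference was not tested. NLRP2 belongs to a multigene family, so the assignment of its reads is uncertain.

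On the scale of all 19 libraries NLRP2 was at 3.3 CPM in Chow+C MII 1, the chow-fed library without testosterone whose oocyte had reached metaphase II (MII), and at 26.5 and 0.755 CPM in the WSD+C libraries with a degenerating oocyte. Under testosterone it ran from 0 to 0.182 CPM in the 4 Chow+T libraries and from 0.0191 to 1.73 CPM in the 6 WSD+T libraries. The fitted log2 fold change there was 3.15 ± 1.29 (SE, unadjusted p = 0.0338, adjusted p = 0.702), with overlapping groups at very low counts. The Chow+C MII library was thus within the range of WSD+C MI and above every Chow+T library.

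Lipid handling was described through lists of genes for each step. In the list for lipid droplets and fatty acid uptake, 20 genes were tested, with a median log2 fold change of -0.25. Of these, 1 was higher and 2 were lower at an unadjusted p under 0.05. Over all genes 2.28% were higher and 4.23% lower at that p, the background for this and the following lists. The median was -0.14 without Chow+C MI 2, with 10 of 21 positive, 2 higher and 2 lower at that p, and 0.06 without Chow+C MI 1. In the fit without Chow+C MI 2, 588 of all 14141 genes were higher and 446 lower at that p. The 1 higher gene of the list in all 6 libraries was CD36, the fatty acid translocase and scavenger receptor. CD36 was at 51.2, 62.1 and 28.2 CPM on chow and at 162, 362 and 103 CPM on the Western-style diet. All 3 Western-style diet libraries were above all chow libraries, and WSD+C MI 2 was the highest. The log2 fold change was 2.15 ± 0.53 (SE, 95% confidence interval 0.89 to 3.41, unadjusted p = 0.00499), 1.51 without WSD+C MI 2 and 2.40 without Chow+C MI 2. CD36 was among the genes DESeq2 called (adjusted p = 0.0421).

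CD36 is also carried by platelets, macrophages and endothelium. The summed platelet markers were 4.46, 2.22 and 0.882 CPM on chow and 0.622, 0.576 and 0.923 CPM on the Western-style diet, and 4 of 6 were under 1 CPM in every library. The macrophage markers summed to 23.2, 16.5 and 15 CPM on chow and to 11.7, 14.3 and 24.3 CPM on the Western-style diet. The endothelial markers summed to 52.2, 37.1 and 42.6 CPM on chow and to 71, 46.1 and 33.9 CPM on the Western-style diet, with CLDN5 at 0. None of these sums was above chow in all 3 Western-style diet libraries, and the part of such cells in the CD36 difference was not tested.

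The 2 lower genes of that list were the fatty acid transport proteins SLC27A1 and SLC27A4. SLC27A4 was at 18.3, 19 and 21.8 CPM on chow and at 13.4, 12.3 and 15.1 CPM on the Western-style diet (log2 fold change -0.54 ± 0.21, SE). SLC27A1 had a log2 fold change of -0.82, which was -0.47 without Chow+C MI 2. Neither gene overlapped between diets. The uptake genes therefore did not move as a group, with CD36 on one side and both SLC27A genes on the other.

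In the list for fatty acid synthesis and desaturation, 13 genes were tested, with a median log2 fold change of -0.11 and 6 positive. Leaving out Chow+C MI 2 gave a median of -0.41, with 4 of 13 positive. Then 1 was higher and 3 were lower at an unadjusted p under 0.05, against 588 and 446 of all 14141 genes. Leaving out Chow+C MI 3 gave a median of 0.19. At an unadjusted p under 0.05 the desaturase FADS2 was higher and SREBF1, the gene for the transcription factor SREBP1 that drives fatty acid synthesis, was lower. FADS2 was at 248, 158 and 254 CPM on chow and at 433, 353 and 400 CPM on the Western-style diet (log2 fold change 0.85 ± 0.26, SE, unadjusted p = 0.0136). SREBF1 was at 114, 180 and 175 CPM on chow and at 61.7, 77.1 and 102 CPM on the Western-style diet (log2 fold change -0.96 ± 0.28, SE, unadjusted p = 0.0119). For both genes the diets did not overlap, and without Chow+C MI 2 the values were 0.66 and -0.85.

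The median of the cholesterol genes lay close to that of all genes. Of 25 genes tested for cholesterol synthesis and uptake, 15 were positive and the median was 0.05. The median was -0.10, with 7 positive, without Chow+C MI 2 and 0.18 without Chow+C MI 1. The 1 member at an unadjusted p under 0.05 was HSD17B7, an enzyme of cholesterol synthesis and of estrogen metabolism, at 456, 201 and 316 CPM on chow and at 538, 611 and 638 CPM on the Western-style diet (log2 fold change 0.88 ± 0.33, SE). Its groups did not overlap, and the value without Chow+C MI 2 was 0.63. SCARB1, the scavenger receptor that takes up cholesterol from HDL, overlapped between diets, with a log2 fold change of -0.03 ± 0.59 (SE).

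In the fatty acid oxidation list, 17 of 22 genes were positive, against 48.3% of all genes, with a median log2 fold change of 0.29. The median was 0.31 without Chow+C MI 2, 0.17 without WSD+C MI 2 and 0.44 without Chow+C MI 1. DECR1 and ACAA2, enzymes of mitochondrial beta-oxidation, were higher at an unadjusted p under 0.05. DECR1 was at 83.3, 65.4 and 66.8 CPM on chow and at 108, 148 and 94 CPM on the Western-style diet, without overlap (log2 fold change 0.70 ± 0.24, SE). CPT1B, the muscle form of the carnitine palmitoyltransferase that admits fatty acids to mitochondria, was lower at 10, 49.6 and 17.8 CPM against 8.4, 6.55 and 8.99 CPM. That difference rested largely on Chow+C MI 2, since its log2 fold change of -1.69 was -0.81 without it. The lipid-sensing nuclear receptor PPARD was at 164, 155 and 128 CPM on chow and at 242, 243 and 214 CPM on the Western-style diet (log2 fold change 0.65 ± 0.20, SE, unadjusted p = 0.0139), with both groups narrow and apart.

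Of the 13 steroid synthesis genes tested, 9 overlapped between diets, 3 (CYP17A1, HSD17B1 and FDXR) lay lower and 1 (CYB5A) lay higher in all 3 Western-style diet libraries. Over all genes tested, 7.02% lay lower and 6.70% lay higher in this way, so counts this small describe single genes. STAR, which delivers cholesterol to the inner mitochondrial membrane, was at 5850, 1950 and 4820 CPM on chow and at 2500, 4380 and 4420 CPM on the Western-style diet (log2 fold change -0.16, 95% confidence interval -1.34 to 1.02). CYP11A1, which cleaves the cholesterol side chain, had a log2 fold change of 0.04 (95% confidence interval -0.99 to 1.06), and HSD3B2, which makes progesterone, one of -0.20 (-1.84 to 1.43). Chow+C MI 2 was the lowest library for STAR and the highest for HSD3B2, and without it the log2 fold changes were -0.50 for STAR and 0.79 for HSD3B2, the latter with the opposite sign. The intervals are wide, so that moderate differences in either direction were not detectable at this spread.

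CYP19A1, the aromatase of estrogen synthesis, ranged from 95 CPM in Chow+C MI 2 to 1280 CPM in Chow+C MI 3, a span that covered all WSD+C MI libraries. Its log2 fold change was 0.41 with Chow+C MI 2 and -0.10 without it. Over the 13 genes the median was -0.16, and 5 were positive. The 1 member at an unadjusted p under 0.05 was CYP17A1, the androgen-forming enzyme of theca cells, at 1.02, 2.16 and 1.14 CPM on chow and 0.391, 0.295 and 0.695 CPM on the Western-style diet. The theca and stroma markers, of which CYP17A1 is one, summed to 173, 57 and 165 CPM on chow and to 141, 137 and 176 CPM on the Western-style diet, and their part in that value was not tested. Of the receptors, LHCGR (log2 fold change 0.66 ± 0.45, SE), FSHR (-0.14 ± 0.44, SE) and PGR (-0.24 ± 0.37, SE) overlapped between diets, and LHCGR was at 0.36 without Chow+C MI 2.

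**Figure D2:**
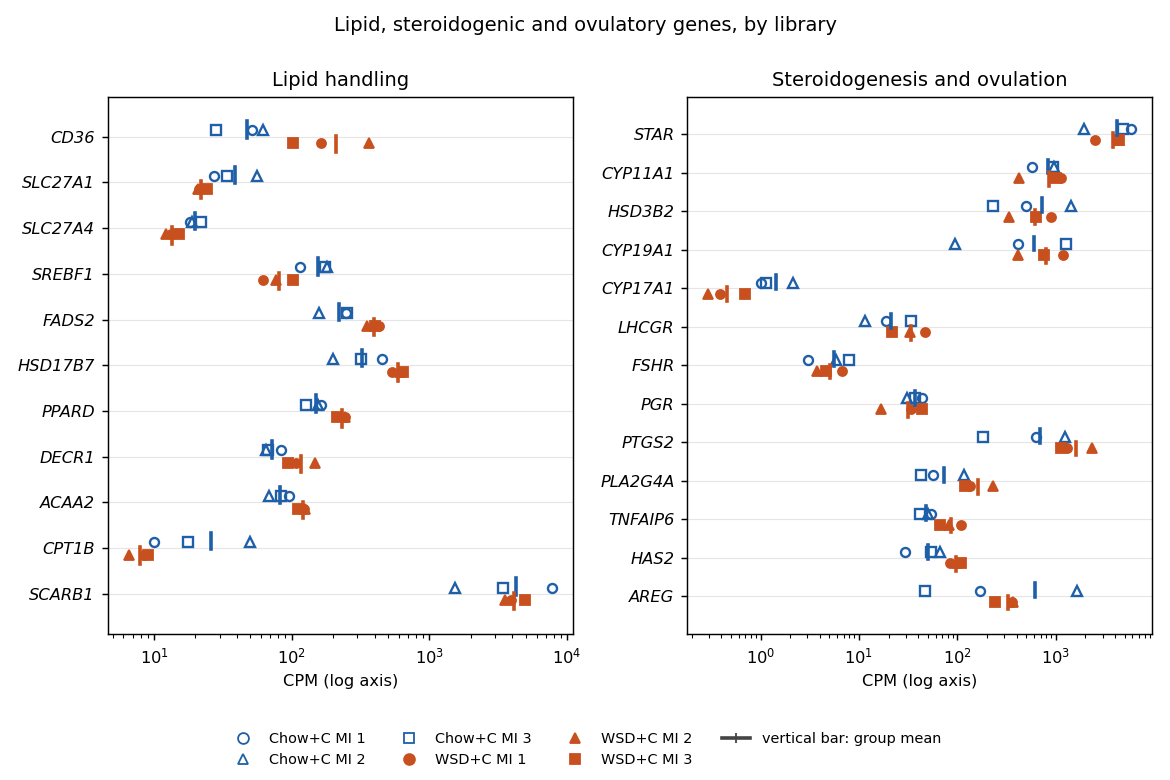
CPM of 11 lipid genes (left) and 13 steroidogenic and ovulatory genes (right) in each of the 6 libraries, on a log axis, with open symbols for Chow+C MI, filled symbols for WSD+C MI and a vertical bar at each group mean. CD36, FADS2, HSD17B7 and PPARD lie higher and SREBF1 lower in all 3 WSD+C MI libraries, while STAR, CYP11A1 and SCARB1 overlap.

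Among ovulatory genes, 3 of 21 were higher at an unadjusted p under 0.05 and 0 were lower, against 2.28% and 4.23% of all genes, and the median log2 fold change was 0.06. The 3 were TNFAIP6 and HAS2, which build and crosslink the hyaluronan matrix, and the transcription factor CEBPA. TNFAIP6 was at 53.4, 50.8 and 41.3 CPM on chow and at 108, 82.8 and 66.5 CPM on the Western-style diet (log2 fold change 0.82 ± 0.24, SE). HAS2 was at 29.2, 67 and 53.4 CPM on chow and at 83.4, 100 and 108 CPM on the Western-style diet (log2 fold change 0.96 ± 0.32, SE). In both genes every Western-style diet library was above every chow library, although HAS2 varied more than 2-fold within chow. Without Chow+C MI 2, 5 members were higher and 1 was lower at an unadjusted p under 0.05, against 588 and 446 of all 14141 genes. AREG, an EGF-like ligand of the ovulatory response, changed sign with that library: its log2 fold change was -0.93 with it and 1.60 without it.

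Prostaglandin genes lay mostly on the higher side. Of 15 tested, 12 were positive, against 48.3% of all genes, with a median log2 fold change of 0.50, and the mean log2 CPM of the list was 3.64, 3.69 and 3.50 on chow and 3.91, 4.25 and 4.08 on the Western-style diet. PLA2G4A, the phospholipase that frees arachidonic acid, was at 56.5, 118 and 42.9 CPM on chow and at 135, 232 and 119 CPM on the Western-style diet, so that the lowest Western-style diet library lay only just above Chow+C MI 2 (log2 fold change 1.16 ± 0.45, SE, and 1.71 without that library). ABCC4, a prostaglandin exporter, had a log2 fold change of 0.75 ± 0.30 (SE). PTGS2, the cyclooxygenase of the ovulatory follicle, was at 636, 1240 and 184 CPM on chow and at 1300, 2340 and 1140 CPM on the Western-style diet. Chow+C MI 2 overlapped there, and the log2 fold change of 1.21 had a 95% confidence interval of -0.39 to 2.81. Without Chow+C MI 2 the PTGS2 log2 fold change was 1.97. The median of the list was 0.57 without Chow+C MI 2, 0.25 without WSD+C MI 2 and 0.77 without Chow+C MI 1.

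Among the pathway lists, integrin adhesion and the cytoskeleton held the most members that were higher at an unadjusted p under 0.05. Of 27 tested, 21 were positive, 6 were higher and 0 lower at an unadjusted p under 0.05, against 2.28% and 4.23% of all genes, and the median log2 fold change was 0.28. The mean log2 CPM of the list was 6.50, 6.31 and 6.41 in Chow+C MI 1 to 3 and 6.71, 6.90 and 6.78 in WSD+C MI 1 to 3. The groups did not overlap, and the separation did not rest on Chow+C MI 2: without it the median was 0.38 (0.44 without Chow+C MI 1), with 8 members higher and 0 lower at an unadjusted p under 0.05. In the fit without Chow+C MI 2, 588 of all 14141 genes were higher and 446 lower at that p. This list holds FHL2 and LIMS1, which were singled out earlier in the same libraries, so it is no independent evidence of its direction.

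FERMT2, the kindlin that activates integrins, was at 141, 127 and 124 CPM on chow and at 197, 227 and 185 CPM on the Western-style diet (log2 fold change 0.63 ± 0.19, SE, unadjusted p = 0.0129). LIMS1, the adaptor PINCH that joins integrin-linked kinase, was at 55.9, 83.2 and 66.9 CPM on chow and at 92.8, 172 and 111 CPM on the Western-style diet (log2 fold change 0.86 ± 0.29, SE). FHL1, a LIM-domain protein, and SDC4, a heparan sulfate syndecan of focal adhesions, had log2 fold changes of 0.87 ± 0.28 and 0.61 ± 0.22 (SE). These 4 did not overlap between diets. TLN2 and FHL2, the other two at an unadjusted p under 0.05, did overlap, with FHL2 at 54.1, 24.3 and 15.1 CPM on chow and 73.6, 47.2 and 91.3 CPM on the Western-style diet. The structural members VCL, TLN1, ZYX and FLNA lay between -0.22 and 0.01, with FLNA and VCL highest in Chow+C MI 2.

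In insulin and IGF signalling, the receptors INSR (log2 fold change -0.07 ± 0.26, SE) and LEPR of the lipid-sensing list (0.47 ± 0.30, SE) overlapped between diets. IRS1, the adaptor below the insulin receptor, was at 92.1, 129 and 85.9 CPM on chow and at 155, 125 and 182 CPM on the Western-style diet, and the ligand IGF2 at 73.4, 76.6 and 129 CPM and at 168, 178 and 120 CPM. Both were at an unadjusted p under 0.05 and both overlapped by 1 library. The mean log2 CPM of the list was higher in all 3 Western-style diet libraries by a small amount, 6.78 to 6.80 against 6.52 to 6.72, and the median over its 20 genes was 0.15, or 0.07 without WSD+C MI 2 and 0.27 without Chow+C MI 1. SLC2A3, a glucose transporter, was at 16, 10.5 and 10.7 CPM on chow and at 18.8, 26.1 and 32.7 CPM on the Western-style diet (log2 fold change 1.06 ± 0.30, SE, unadjusted p = 0.00933).

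Growth factor and vessel genes held a few members of the same kind. BMPR1A, a type I BMP receptor, was at 44, 38 and 54.9 CPM on chow and at 86.6, 88.3 and 63.2 CPM on the Western-style diet (log2 fold change 0.80 ± 0.23, SE), and CCND2, the D-type cyclin of granulosa cells, had a log2 fold change of 0.87 ± 0.24 (SE). ANGPT1, the ligand that activates the vascular receptor TIE2, was at 1.32, 2.35 and 0.571 CPM on chow and at 8.47, 5.77 and 2.5 CPM on the Western-style diet. ANGPT2, which can block TIE2, went the other way with a log2 fold change of -1.37 ± 0.53 (SE) and overlapped between diets. The lists themselves had medians of 0.06 (TGF-beta and BMP, 23 genes) and 0.05 (angiogenesis, 15 genes), near the -0.02 of all genes. GPX3, the secreted glutathione peroxidase, was at 101, 93.5 and 96.1 CPM on chow and at 197, 163 and 145 CPM on the Western-style diet (log2 fold change 0.80 ± 0.20, SE, unadjusted p = 0.00501), and 18 of the 20 oxidative stress genes were positive, against 48.3% of all genes. Of the 20, 15 were positive without Chow+C MI 2. The median of that list, 0.38, was 0.27 without that library, 0.24 without WSD+C MI 2 and 0.59 without Chow+C MI 1.

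All 26 nuclear genes of oxidative phosphorylation tested were positive, with a median log2 fold change of 0.42 and none at an unadjusted p under 0.05. All 25 cytosolic ribosomal protein genes were positive as well, with a median of 0.39. The ribosomal list overlapped between diets and was lowest in Chow+C MI 2: its mean log2 CPM was 8.01, 6.75 and 7.65 on chow and 8.18, 7.92 and 7.72 on the Western-style diet. The mean log2 CPM of the oxidative phosphorylation list was higher in all 3 Western-style diet libraries. Both medians were smaller without Chow+C MI 2. They were then 0.22 for oxidative phosphorylation and 0.10 for ribosomal proteins, with 26 of 26 and 23 of 25 positive. Without Chow+C MI 1 they were 0.67 and 0.69. The 12 mitochondrially encoded genes had a median of -0.80 with Chow+C MI 2 and of 4.77 without it. Chow+C MI 1 and 3 had almost no counts for several of them, with 191 and 419 counts of MT-CO3 against 803617 in Chow+C MI 2.

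Cilium assembly genes lay in the other direction, with 19 of 24 negative, a median log2 fold change of -0.45, and 7 lower and 0 higher at an unadjusted p under 0.05. Over all genes tested 48.3% were positive and 4.23% were lower at that p. The intraflagellar transport genes IFT140 and IFT172 were members of this kind. IFT140 was at 18.6, 37.4 and 32.8 CPM on chow and at 12.2, 15.6 and 18.5 CPM on the Western-style diet. The highest Western-style diet value was just under the lowest chow value. DNAAF3, a dynein assembly factor, was at 5.32, 53.6 and 10.9 CPM on chow and at 4.74, 4.7 and 6.12 CPM on the Western-style diet. Its log2 fold change of -2.16 was -0.65 without Chow+C MI 2. Without that library IFT172 went from -1.39 to -0.86 and IFT140 from -0.94 to -0.74. Without Chow+C MI 2 the number lower at an unadjusted p under 0.05 went from 7 to 1, against 446 of all 14141 genes, and the median was -0.34.

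Cell cycle genes varied within both groups. CCNB2, a mitotic cyclin, was at 3.09, 1.12 and 4.44 CPM on chow and at 28, 2.71 and 8.36 CPM on the Western-style diet. WSD+C MI 1 was far above the rest, and the log2 fold change of 2.17 was 0.94 without it. The median of the 25 genes, 0.54, was 0.09 without WSD+C MI 1 and 0.12 without Chow+C MI 2. Of the 31 pathway lists, 6 had a higher mean log2 CPM in all 3 Western-style diet libraries and 0 a lower one. Single genes lay apart in this way in 6.70% (higher) and 7.02% (lower) of those tested. Some lists share members and all rest on the same 6 libraries, so the lists are not independent and their number was not tested. The 6 were integrin adhesion, prostaglandin, insulin and IGF, lysosome, apoptosis and nuclear oxidative phosphorylation.

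**Figure D3:**
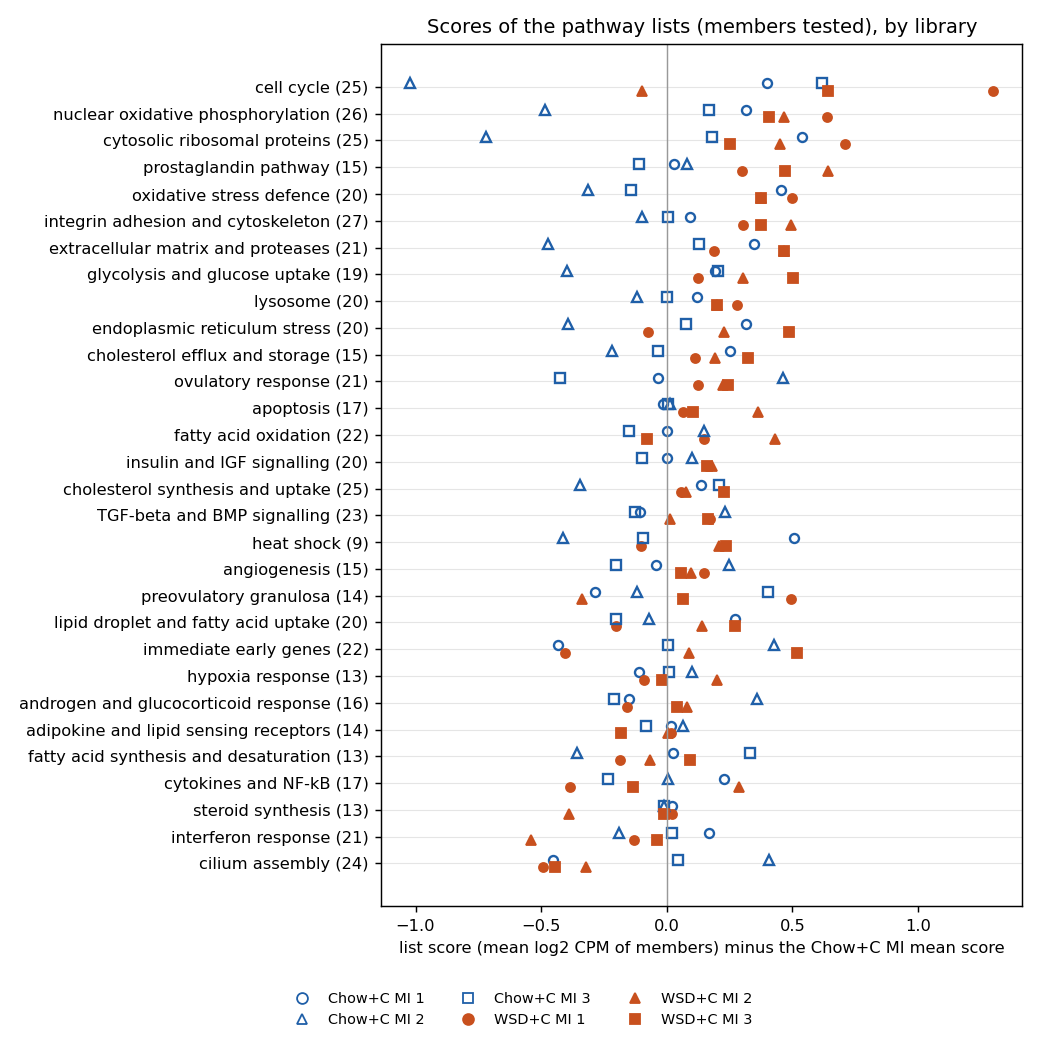
Mean log2 CPM of the tested members of 30 pathway lists in each library, less the mean of the 3 Chow+C MI libraries (x axis, log2 units), with the number of tested genes in brackets; the mitochondrially encoded list is off this scale and left out. Integrin adhesion and prostaglandin genes lie higher in all 3 WSD+C MI libraries, while for ribosomal proteins and the cell cycle Chow+C MI 2 lies far to the left.

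The remaining 13 libraries had no part in choosing the 24 genes and show where other follicles lie. One of them, Chow+C MII 1, came from a chow-fed animal without testosterone whose oocyte had reached metaphase II. For 23 of the 24 genes it lay beyond all 3 Chow+C MI libraries on the side of WSD+C MI. The exception was KCNAB3, at 11.3 CPM on the scale of all 19 libraries, within 9.92 to 16.5 CPM in Chow+C MI. The 24 were chosen with Chow+C MI at one end, which places other libraries on the far side. Over all genes without overlap, Chow+C MII 1 lay beyond Chow+C MI for 71.2% of the higher and 67.7% of the lower ones. MESP2 was counted at 0.841 CPM, level with the 0.84 CPM of Chow+C MI 1 and below the 2.68 to 4.07 CPM of WSD+C MI. On the scale of all 19 libraries GPR83 was at 48.8 CPM in Chow+C MII 1, against 3.67 to 8.38 CPM in Chow+C MI and 18.7 to 45.3 CPM in WSD+C MI. PRG4 was at 4.07 CPM in it, against 6.79 to 19.8 and 2.68 to 3.4 CPM, and CD36 at 286 CPM, against 28.1 to 57.9 and 104 to 367 CPM. FADS2, like CD36 not one of the 24, was at 241 CPM within the chow range of 148 to 252 CPM. HSD17B7, DECR1 and SDC4 also lay within their Chow+C MI ranges.

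The other chow-fed libraries, all with testosterone, lay beyond Chow+C MI for 15, 21, 21 and 23 of the 24 genes. The 2 WSD+C libraries with a degenerating oocyte did so for 11 and 19, and the 6 WSD+T libraries for 11 to 24. Over the 13 libraries this made 71.2% of the cases for the 12 higher and 81.4% for the 12 lower genes. For all 924 and 969 genes without overlap the shares were 63.4% and 65.3%. Genes chosen because Chow+C MI lies at one end leave other libraries on the far side, so these shares describe the 24 genes against that background. With all oocyte classes pooled, 4 Chow+C against 5 WSD+C libraries, edgeR called 0 genes and 288 were at an unadjusted p under 0.05.

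**Figure D4:**
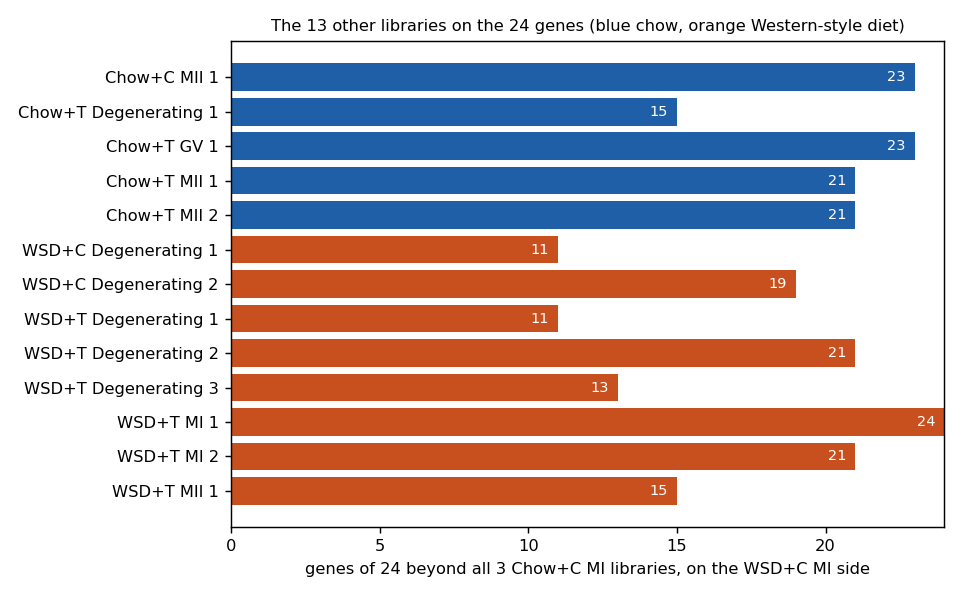
Number of the 24 named genes (x axis, 0 to 24) for which each of the 13 other libraries lies beyond all 3 Chow+C MI libraries on the WSD+C MI side, with chow libraries in blue and Western-style diet libraries in orange. Chow+C MII 1, on chow without testosterone, reaches 23 of 24, and the counts run from 11 to 24. Over all genes without overlap, Chow+C MII 1 lies beyond for 71.2% of the higher and 67.7% of the lower ones.

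The same diet contrast under testosterone, 6 WSD+T against 4 Chow+T libraries, shares no library with the MI comparison. Its oocyte classes are not matched: Chow+T held 2 MII, 1 degenerating and 1 GV (germinal vesicle) oocyte, and WSD+T 2 MI, 1 MII and 3 degenerating. Of 14149 genes tested with edgeR 0 (0%) were called, and 947 (6.69%) were at an unadjusted p under 0.05, or 552 without Chow+T MII 2. DESeq2 called 18 genes. Leukocyte markers were mostly higher on the Western-style diet in this contrast, with 9 of 10 positive and a median log2 fold change of 3.10, and their part in it was not tested.

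The named genes did not keep their direction there. Of the 12 higher genes 2 were positive under testosterone (ATP7A at 0.35 and SRI at 0.38), and of the 12 lower genes 1 was negative (EFCC1 at -0.67). Leaving out any 1 of the 10 libraries gave 3 to 6 of 24 in the same direction, with 6 without WSD+T MII 1 and 5 without WSD+T Degenerating 1, WSD+T Degenerating 3 or Chow+T GV 1. Among all genes at an unadjusted p under 0.05 in MI follicles and tested in both, 94 of 314 higher genes (29.9%) and 145 of 572 lower genes (25.3%) had the same direction, against 44.4% of the 13653 genes tested in both. Without Chow+C MI 2 the shares were 36.5% and 31.2%, against 44.3%.

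FAM47E was the only 1 of the 24 at an unadjusted p under 0.05 under testosterone, and with the opposite sign: its log2 fold change was 1.32 ± 0.26 (SE) in MI follicles and -0.93 ± 0.38 (SE) under testosterone. CD36 was at 2.15 ± 0.53 (SE) in MI follicles and 0.15 (unadjusted p = 0.868) under testosterone. The integrin list had a median of -0.08 there, with 11 of 27 positive, and the prostaglandin list one of 0.39, with 9 of 15 positive. The difference between the diet effects, fitted over the 16 libraries, passed the adjusted threshold for 0 (0%) of 14995 genes in edgeR, with 1892 (12.6%) at an unadjusted p under 0.05, and DESeq2 called 31. The 1892 became 1217 without Chow+C MI 2 and 1258 without WSD+C MI 2. For FAM47E the difference was 2.25 (unadjusted p = 0.00101, adjusted p = 0.379), and this difference includes the MI values that chose the gene. That the diet effect differs with testosterone was therefore not shown for any gene by edgeR.

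**Figure D5:**
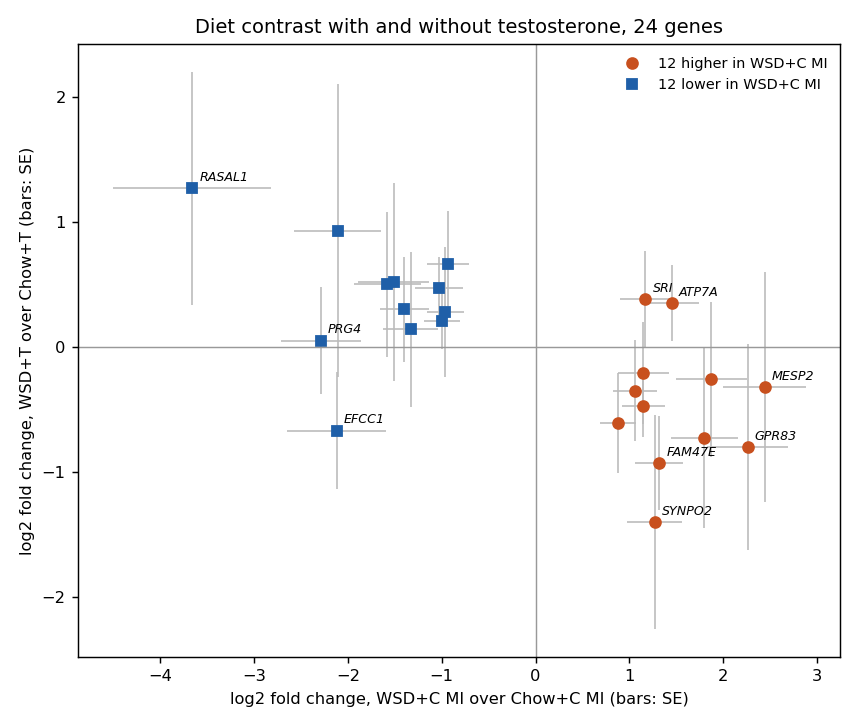
Log2 fold change of the 24 named genes for Western-style diet over chow in MI follicles without testosterone (x axis) and under testosterone (y axis), with bars of 1 SE. Of the 12 genes on the right 10 lie below 0 on the y axis, and of the 12 on the left 11 lie above it.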

How the data were processed

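The authors deposited unnormalized read counts, 1 table of genes by 19 libraries, per the file headers. The authors trimmed reads with Trimmomatic and aligned them with STAR, per the submitters' processing notes, while the versions of both, the build and the gene models are not given in the sources used. This count table lists 32386 genes and 4 classes of unassigned reads, which took no part in library sizes. In the 6 libraries compared, 49.1% to 67.5% of reads were in genes. No genome was used, so no coordinates or sequences are given. Non-directional libraries do not separate overlapping or antisense genes, and the reads carry no molecular identifiers.

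The 6 libraries were analysed alone in R 4.3.3 with edgeR 4.0.16 (filterByExpr with a minimum count of 10 and a minimum total of 15, TMM scaling, robust quasi-likelihood test, two-sided, Benjamini-Hochberg adjustment over 13794 genes, threshold 0.05). The script was tested on simulated data. Fold changes are fitted log2 values of Western-style diet over chow. CPM values are TMM-scaled, and list means are of log2 CPM with a prior count of 1 over the tested members. Groups did not overlap when all 3 libraries of one diet lay beyond all 3 of the other. DESeq2 1.42.0 and limma 3.58.1 were alternatives, beside other scalings, filters, library sets, a leukocyte covariate and leaving out each library.

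Named were, since fewer than 10 genes passed, the 12 higher and 12 lower symbol-bearing genes of smallest p whose mean log2 CPM was 0 or above, up to 4 members of each list at an unadjusted p under 0.05, and a panel of 16 genes, some of which are not reported here. The 31 pathway and 12 marker lists held 821 genes, of which 749 were matched by symbol. The comparison, its genes and the lists were chosen with earlier results of these data known.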

Additional observations from a re-analysis of the deposited data

How the results depend on the processing

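No gene passed edgeR's adjusted threshold in MI follicles with RLE scaling, without mitochondrially encoded genes, with either filter, in 19 or 8 libraries, with a leukocyte covariate, with limma-voom or without any 1 library. DESeq2 called 35, of which 20 were among the 24 named genes. The count at an unadjusted p under 0.05 (898) was 1396 with DESeq2, 288 with all oocyte classes pooled, and 364 to 2589 without 1 library. Its higher share (35%) was 51.5% with limma-voom, 18.5% with all 19 libraries, and 55.5% to 58.6% without WSD+C MI 1, WSD+C MI 2 or Chow+C MI 2. That share was 30.8% to 38.9% without Chow+C MI 1, Chow+C MI 3 or WSD+C MI 3. All 24 named genes kept their sign under every one of these settings, 15 of them at an unadjusted p under 0.05 with all 19 libraries and 10 with the classes pooled. The 24 were chosen for small p in the same libraries that these settings refit. Their kept signs and DESeq2 calls are therefore no independent evidence. Pooling reversed TNFAIP6 (-0.10), CCNB2 (-0.06), ANGPT2 (0.62), CTSK (0.39), CSF3R (1.73) and KRT18 (0.61), and the cause was not tested. Under testosterone DESeq2 called 18 genes and edgeR 0 to 1 without 1 library (1, PCF11, without Chow+T GV 1), with 552 (without Chow+T MII 2) to 1118 at an unadjusted p under 0.05. For the difference of the diet effects DESeq2 called 31 and edgeR 0 without any 1 library, with 1217 (without Chow+C MI 2) to 2769 (without Chow+C MI 1) at an unadjusted p under 0.05. Of the 24 genes, 3 to 6 kept their direction under testosterone without 1 library, an alternative chosen after seeing the data, as were the values of the lists without Chow+C MI 2. No paired analysis was run, because the labels name no pairs of libraries between the diets. With 3 libraries a group, a biological coefficient of variation of 0.442 limits what can be detected.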

Other observations

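Counts of mitochondrially encoded genes formed separate patterns found on both diets and with and without testosterone. In 4 of the 19 libraries, Chow+C MI 1, Chow+C MI 3, WSD+T MI 1 and Chow+T MII 1, MT-CO3, a subunit of cytochrome c oxidase, was at no more than 11.9 CPM of gene counts, against 2190 to 27900 in the other 15. MT-CYB, the cytochrome b gene, was at 3980 to 10000 CPM in those 4 and at 5600 to 40400 in the others, so the libraries overlapped for that gene. In Chow+C MI 1 the counts were 191 for MT-CO3, 40 for MT-ATP6 and 67 for COX1, beside 234728 for MT-CYB and 213410 for MT-CO2. WSD+C MI 1 held 326560 for MT-CO3, 49449 for MT-ATP6 and 125099 for COX1, beside 446222 for MT-CYB. Chow+T GV 1 was low for MT-ATP6 alone, with 49 counts. The low pattern was in 2 of the 3 Chow+C MI and 0 of the 3 WSD+C MI libraries, so it cannot be told apart from diet in the fold changes of these genes.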
